A study of Mus musculus with 10 samples.

Results

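Protein lipoylation is the attachment of lipoic acid to a few mitochondrial enzymes, and the genes described here are the 10 that build that cofactor or carry and use it: Fdx1, Lias, Lipt1, Lipt2, Dld, Dlat, Pdha1, Pdhb, Dlst and Gcsh. They were chosen by name as the lipoylation genes of cuproptosis, from a table of 52636 genes. All 10 were found, and all 10 were among the 15916 genes that passed the low-count filter. The cells are mouse leukaemic progenitors of a model called DIN, made by putting MSCV retroviral vectors for DNMT3A R882H (with dsRed), IDH2 R140Q (with GFP) and NRAS G12D (with the tTA activator) into fetal liver cells and transplanting them into sublethally irradiated female Ptprca mice. Frozen cells from moribund mice were given to further Ptprca recipients, which received normal chow and water or chow and water with doxycycline for 5 or 14 days. Doxycycline lowers expression from the TRI-DNMT3A R882H vector (off), and without it the vector stays active (on). cKit+/Cd11b- cells were sorted from marrow and spleen, and their RNA was read as 3′ tags in 4 libraries at day 14 off and 2 libraries each at day 14 on, day 5 off and day 5 on.

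All 4 groups carry the IDH2 R140Q and NRAS G12D vectors, and none holds cells without the DNMT3A R882H vector. An effect of doxycycline itself therefore cannot be told apart from loss of R882H. The labels give neither the sex or age of the secondary recipients nor which libraries came from marrow, and they do not say that each library is a separate mouse, so p-values measure the spread between these libraries.

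Lipoic acid is made on the protein that carries it. Lipt2 moves an octanoyl group from the mitochondrial acyl carrier protein to Gcsh, the H protein of glycine cleavage, Lias inserts the sulfur atoms with an iron-sulfur cluster, and Lipt1 passes the finished lipoyl group to the E2 subunits Dlat (pyruvate dehydrogenase), Dlst (2-oxoglutarate dehydrogenase) and Dbt (branched-chain keto acid dehydrogenase). Fdx1, a ferredoxin, acts upstream of lipoylation, Dld is the E3 subunit that reoxidises the lipoyl arm, and Pdha1 and Pdhb form the E1 subunit of pyruvate dehydrogenase. In cuproptosis, copper binds lipoylated proteins, Dlat among them, and the proteins aggregate.

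Total counts ran from 9292644 to 14340624 per library, and a gene with a count of 0 may lie at up to 0.209 to 0.323 CPM, depending on the library (3 counts; counting error only). CPM values are read counts scaled by library size and TMM factor. The mouse gene Dnmt3a had 34.8 ± 3.40 CPM (SD, n = 4) in the day 14 off group and 64.7 ± 12.6 in the on group of that day (n = 2). At day 5 its groups had 57.9 ± 10.9 off and 52.0 ± 1.14 on. A 3′ tag of the vector transcript need not fall in that gene, so these values do not check the labels. Of the sort markers, Kit was at 34.5 ± 2.52 CPM in the day 14 off group and 93.5 ± 6.48 in the on group, and Itgam, which encodes Cd11b, at 3.15 ± 0.744 and 15.3 ± 9.27. The 3 genes at ribosomal RNA loci summed to between 76790 and 170100 CPM, and mitochondrial genome transcripts took 2.05% to 3.61% of the counts.

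At day 14, 3 of the 10 lipoylation genes were higher with R882H off than on, and 0 were lower. They were Dlst, Dlat and Dld, that is, both lipoylated E2 subunits on the list and the E3 subunit the complexes share. Over all 15916 tested genes, 16.9% were called higher and 14.9% lower (edgeR's quasi-likelihood test, Benjamini-Hochberg adjusted p of at most 0.05). In either direction, 31.8% of all tested genes were called. DESeq2 and limma voom likewise called 3 members higher. The point estimate was positive for 9 of 10 members, with a median log2 fold change of 0.41, beside 0.01 over all tested genes. Without regard to sign, the median change was 0.41 for the members and 0.48 over all tested genes, so the members moved no more than a typical gene. The 4 genes that assemble the cofactor (Lias, Lipt1, Lipt2 and Fdx1) and the 2 E1 genes did not pass the test. Because these are bulk samples, fewer cells of a type and less RNA per cell cannot be told apart.

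**Figure D1:**
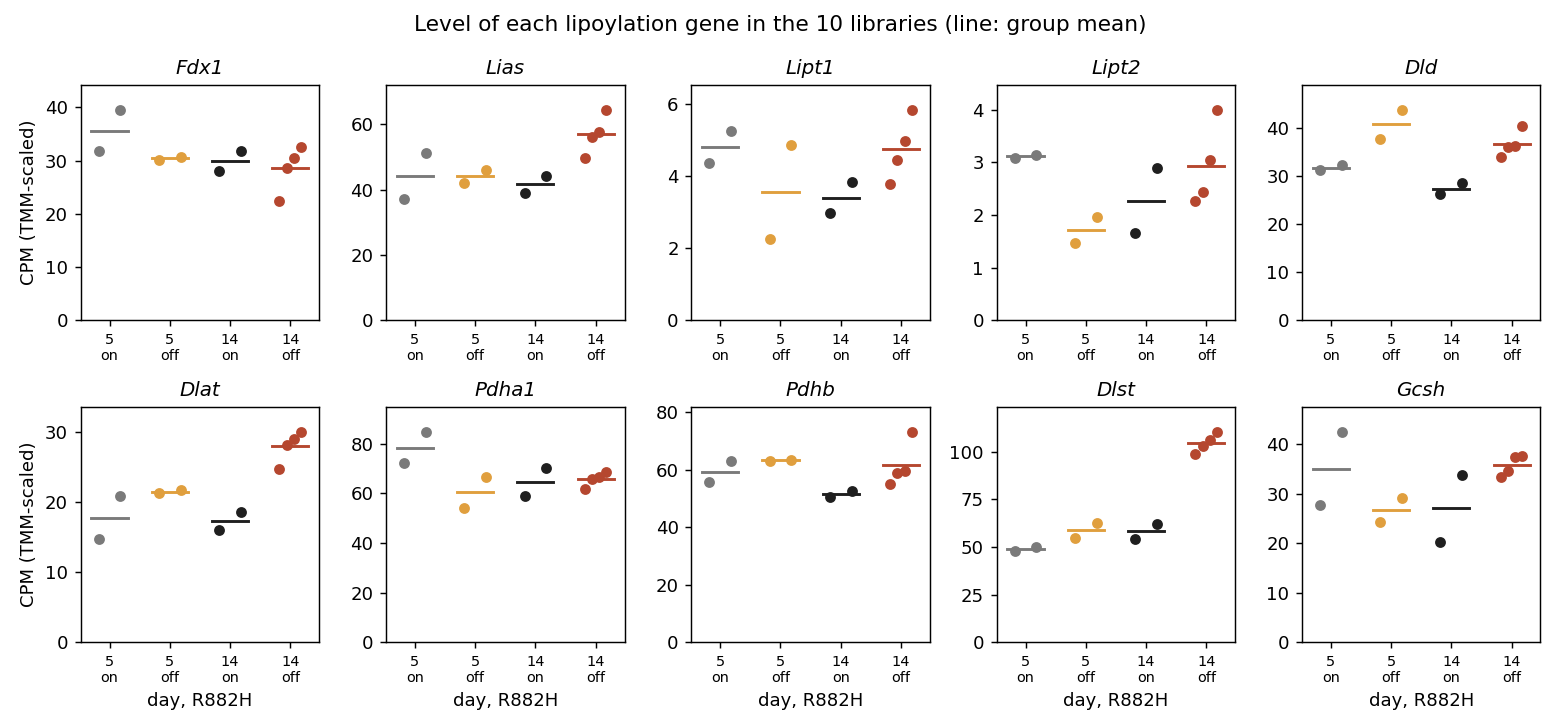
Level of each of the 10 lipoylation genes (vertical axis, TMM-scaled CPM, starting at 0) in each library (points), by day and R882H state (horizontal axis), with a line at the group mean. The 4 Dlst points at day 14 off lie at 98.8 to 110.2 CPM, above the other 6 libraries, which reach at most 62.5, while the Fdx1 groups at day 14 overlap.

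Erythroid marker genes moved with the day 14 comparison. Of 22 such markers, 14 were higher and 0 lower at day 14 off (median log2 fold change 2.45), and none was at 0 in any library. Summed over the list, the 4 day 14 off libraries had 4495 to 5772 CPM, and those of day 14 on had 1725 and 2456. The day 5 libraries had 1239 and 2822 off and 1607 and 3722 on, and these sums overlapped. Of the 22, 3 were called at day 5, all higher off (Rhag, Car1 and Epor, named after their values were seen), and 0 lower. The median log2 fold change of the 22 was 1.67, and 0.484% of all tested genes were called on that day. At day 14 Klf1, an erythroid transcription factor, was at 65.2 ± 11.1 CPM off and 1.69 ± 0.0962 on, and Gata1, another, at 69.1 ± 7.85 and 2.89 ± 0.895. At day 5 Klf1 was at 14.2 ± 12.6 CPM off and 1.48 ± 0.926 on, with an edgeR adjusted p of 0.0616. Not all markers rose. The log2 fold change was positive for 21 of the 22 at day 14, and that of Hbb-bt was -0.12 ± 0.46 (SE; edgeR adjusted p = 0.860). It was positive for 16 of the 22 at day 5, where Alas2 had -1.63 ± 0.48 (0.167) and Hbb-bt -1.02 ± 0.535 (0.416). Hbb-bt, at 838 ± 365 CPM off and 1695 ± 1019 on at day 5 (SD), is a large part of the day 5 sums. The day 14 off group, with the highest sums, also had the highest Dlst and Dlat means. Dld was higher at day 5 off (40.8 ± 4.23 CPM) than at day 14 off (36.7 ± 2.69). The part of erythroid transcripts in the results of these 3 genes and of the related lists was not tested. Neutrophil markers summed to 869.6 to 1218 CPM in the day 14 off libraries and 1234 and 2121 in the on libraries, with 1 of 14 higher and 4 lower. Of 10 monocyte markers 0 were higher and 5 lower, of 8 tested T and NK cell markers 1 and 2, and of 5 tested B cell markers 0 and 0. The shares of all tested genes at day 14 were 16.9% higher and 14.9% lower.

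Dlst, the E2 subunit of 2-oxoglutarate dehydrogenase (ENSMUSG00000004789, mm10 chromosome 12, 85110833 to 85134845, plus strand), had the largest change among the 10 at day 14. Its levels at day 14 off were 98.8, 110.2, 106 and 103 CPM in replicates 1 to 4. At day 14 on they were 62.1 and 54.2 CPM. The groups did not overlap, and the lowest off library was above the higher on library by more than the spread within either group. The means were 105 ± 4.83 CPM (SD, n = 4) and 58.1 ± 5.58 CPM (SD, n = 2), and Dlst rose 1.80-fold (95% interval 1.49 to 2.17). The log2 fold change was 0.85 ± 0.12 (SE; edgeR adjusted p = 6.2e-04), and it stayed between 0.76 and 0.92 and was called in all 18 alternative fits. The counts behind these levels were 1095 to 1544 reads in the off libraries and 599 and 600 in the on libraries.

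Dlat, the E2 subunit of pyruvate dehydrogenase and a copper-binding lipoylated protein (ENSMUSG00000000168, chromosome 9, 50634633 to 50659780, minus strand), was also higher at day 14 off. Its levels were 30.0, 28.2, 24.7 and 29.0 CPM in the 4 off libraries and 16.1 and 18.5 CPM in the on libraries. Every off library was above both on libraries. Dlat rose 1.62-fold, a log2 fold change of 0.69 ± 0.18 (SE, 95% interval 0.30 to 1.08; edgeR adjusted p = 0.0125), from 17.3 ± 1.73 CPM (SD, n = 2) to 28.0 ± 2.29 (SD, n = 4). The call was lost in 1 of 18 alternative fits, the one without day 14 on replicate 1, where the change was 0.56 and the edgeR adjusted p 0.140.

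Dld, the E3 subunit (ENSMUSG00000020664, chromosome 12, 31331277 to 31351453, minus strand), showed the smallest of the called changes. The off libraries had 36.1, 36.3, 34.1 and 40.5 CPM and the on libraries 26.3 and 28.6 CPM, again without overlap. The log2 fold change was 0.42 ± 0.14 (SE, 95% interval 0.12 to 0.72; edgeR adjusted p = 0.0373), a 1.34-fold rise. This call lies near the threshold: it held in 6 of 18 alternative fits, and the edgeR, DESeq2 or voom adjusted p ran from 0.0429 to 0.270. Leaving out 1 library ended it for 7 of them (day 14 off replicates 1, 2 and 4, day 14 on replicates 1 and 2, day 5 off replicate 1 and day 5 on replicate 1), with the highest value, 0.270, without day 14 on replicate 1.

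The promoters of Dlst and Dlat are printed here because these E2 genes rose together, and that of Fdx1, which was not called, for comparison. Each is 250 bases before to 50 bases after the RefSeq transcript start on GRCm38.p6, 5′ to 3′ on the gene's strand. Capitals mark matches, on either strand, to 4 motifs searched by their letters: GCGCNNGCG (NRF1-like), CCGGAAG (ETS-like), TCAAGGTCA (the ERR element) and CCAAT.
Dlst, chr12:85110583-85110882, plus strand: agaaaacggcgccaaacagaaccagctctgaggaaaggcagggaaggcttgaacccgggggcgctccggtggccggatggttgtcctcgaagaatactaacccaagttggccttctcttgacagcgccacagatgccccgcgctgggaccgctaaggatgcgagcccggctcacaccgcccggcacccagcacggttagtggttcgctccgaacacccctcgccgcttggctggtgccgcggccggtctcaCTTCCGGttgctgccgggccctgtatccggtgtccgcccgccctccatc
Dlat, chr9:50659731-50660030, minus strand: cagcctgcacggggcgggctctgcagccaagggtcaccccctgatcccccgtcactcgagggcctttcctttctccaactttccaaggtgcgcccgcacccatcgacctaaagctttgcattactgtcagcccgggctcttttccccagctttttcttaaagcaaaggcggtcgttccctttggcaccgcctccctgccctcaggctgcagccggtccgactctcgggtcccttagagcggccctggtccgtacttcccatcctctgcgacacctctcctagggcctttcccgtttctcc
Fdx1, chr9:51963553-51963852, minus strand: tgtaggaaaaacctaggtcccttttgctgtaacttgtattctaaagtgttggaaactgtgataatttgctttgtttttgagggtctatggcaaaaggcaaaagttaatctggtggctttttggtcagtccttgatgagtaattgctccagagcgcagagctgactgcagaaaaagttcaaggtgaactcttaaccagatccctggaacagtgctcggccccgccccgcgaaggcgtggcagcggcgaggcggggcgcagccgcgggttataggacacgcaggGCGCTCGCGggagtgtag
The Dlst window holds 1 ETS-like match, on the reverse strand at position 252 of the 300, just past the start. The Fdx1 window holds 1 NRF1-like match at position 283, and the Dlat window holds none of the 4 motifs. GC content was 65.7% for Dlst, 62% for Dlat and 52% for Fdx1, with a median of 52.7% over all 32841 windows, and the windows held 28, 18 and 16 CpG pairs beside a median of 7.

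All 10 members had a RefSeq window. The NRF1-like letters occurred in windows of 3 of the 10 (Fdx1, Dld and Pdha1) and of 13.5% of 27018 genes. ETS-like letters occurred in 2 of the 10 (Lipt1 and Dlst) and in 9.93% of genes, and CCAAT in 5 (Lipt1, Lipt2, Gcsh, Dld and Pdhb) and in 41.1%. The ERR element occurred in 0 of the 10 and in 0.466% of genes. No motif was present in all 3 of the genes that rose, and a match in these letters describes the sequence only.

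Among the genes that make and pass on the lipoyl group, Lias, the lipoyl synthase (ENSMUSG00000029199, chromosome 5, 65391497 to 65410693, plus strand), came nearest the threshold at day 14. It was at 49.5, 64.3, 57.6 and 56.2 CPM in the off libraries and 44.2 and 38.8 CPM in the on libraries. The groups did not overlap, and the log2 fold change was 0.45 ± 0.16 (SE, 95% interval 0.09 to 0.82; edgeR adjusted p = 0.0553). The change stayed between 0.37 and 0.52 in the 18 alternative fits, and Lias was called in 2 of them. These were the fits without day 5 on replicate 1 or replicate 2, which enter only through the shared estimate of spread and scaling.

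The lipoyl transferase Lipt1 (ENSMUSG00000037216, chromosome 1, 37871738 to 37876228, plus strand) and the octanoyl transferase Lipt2 (ENSMUSG00000030725, chromosome 7, 100159277 to 100161365, plus strand) had few reads, 22 to 70 and 16 to 58 per library. Lipt1 was at 5.84, 4.47, 3.79 and 4.99 CPM in the off libraries and 3.84 and 2.98 CPM in the on libraries, so that the groups overlapped. Its log2 fold change was 0.48 ± 0.33 (SE; edgeR adjusted p = 0.300). Lipt2 was at 3.05, 2.27, 3.99 and 2.45 CPM off and 1.66 and 2.89 CPM on, with a change of 0.36 ± 0.35 (adjusted p = 0.468). At this depth the 95% intervals, -0.25 to 1.22 for Lipt1 and -0.42 to 1.15 for Lipt2, include changes as large as that of Dlst as well as none. Lipt1 also shares 262 exonic bases with Mitd1 on the opposite strand, which had 6334 reads in all beside 499 for Lipt1, and without a stated strand setting their reads cannot be told apart.

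Fdx1, the ferredoxin (ENSMUSG00000032051, chromosome 9, 51943306 to 51963556, minus strand), was not among the called genes in any comparison. Its day 14 off libraries had 30.6, 28.6, 32.6 and 22.5 CPM and its day 14 on libraries 28.1 and 31.8. The on values lay inside the range of the off values. The log2 fold change was -0.07 ± 0.17 (SE, 95% interval -0.44 to 0.31, edgeR adjusted p = 0.800). That interval reaches neither the estimate for Dlat nor that for Dlst. It overlaps the interval of Dlat, which starts at 0.30, and ends below that of Dlst, which starts at 0.57. A difference between genes was not tested. Fdx1 at day 5 was 30.7 and 30.1 CPM off and 31.8 and 39.5 CPM on.

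The E1 genes of pyruvate dehydrogenase were not called. Pdha1 (ENSMUSG00000031299, chromosome X, 160122209 to 160138413, minus strand), the catalytic alpha subunit, had 66.5, 68.6, 61.8 and 65.6 CPM off and 59.1 and 70.1 CPM on at day 14. Its log2 fold change was 0.02 ± 0.14 (SE, 95% interval -0.28 to 0.32; edgeR adjusted p = 0.915), and the sign turned in 8 of 18 alternative fits. Pdha1 shares 603 exonic bases with Map3k15 on the opposite strand, whose counts were 27.8% to 40.0% of those of Pdha1, and without a stated strand setting the reads of the pair cannot be told apart. Pdhb (ENSMUSG00000021748, chromosome 14, 8165996 to 8173025, minus strand), the beta subunit, had 59.6, 55.0, 73.0 and 58.6 CPM off and 50.4 and 52.7 CPM on. These groups did not overlap, and the change was 0.26 ± 0.14 (adjusted p = 0.187).

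Gcsh, the glycine cleavage H protein on which lipoate is assembled (ENSMUSG00000034424, chromosome 8, 116981810 to 116993537, minus strand), had 37.7, 37.5, 34.6 and 33.4 CPM at day 14 off. Its day 14 on libraries differed from each other, at 20.3 and 33.9 CPM, and the second lay within the off range. The log2 fold change was 0.40 ± 0.22 (SE; edgeR adjusted p = 0.201). In the 18 alternative fits it ran from 0.049 to 0.82, and Gcsh was called in 1 of them, without day 14 on replicate 2 (0.82). In all, 5 of the 10 members (Lias, Dld, Dlat, Pdhb and Dlst) had every day 14 off library above both on libraries, beside 27.9% of all tested genes.

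**Figure D2:**
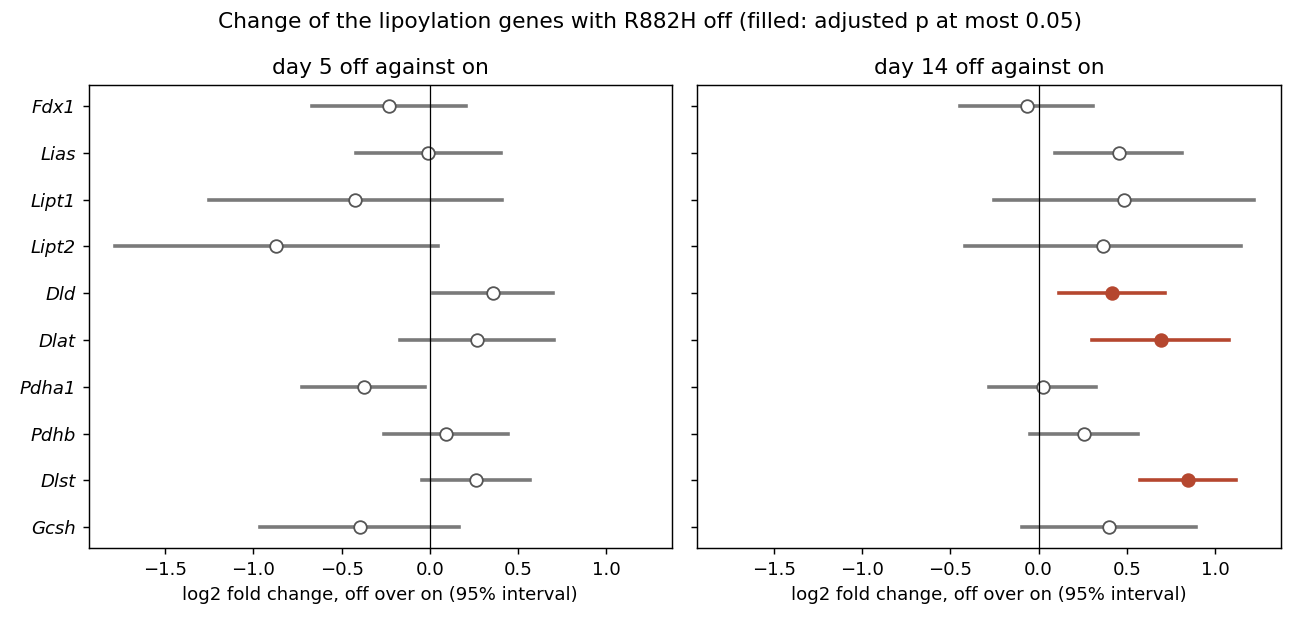
Log2 fold change, off over on (horizontal axis), of each lipoylation gene at day 5 and day 14, with its 95% interval as a bar; filled points passed the test. Dlst, Dlat and Dld are filled at day 14, with estimates of 0.85, 0.69 and 0.42, and no gene is filled at day 5.

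At day 5, 0 of the 10 lipoylation genes were called in either direction by edgeR, DESeq2 or limma voom, and 2 (Dld and Pdha1) had an unadjusted edgeR p under 0.05. Few genes were called at all on that day, 0.484% of those tested. The median log2 fold change of the members was -0.12, and 4 of 10 estimates were positive. Dld had 37.9 and 43.8 CPM off and 31.4 and 32.3 CPM on, a change of 0.36 ± 0.15 (SE; edgeR adjusted p = 0.309), close in size to its day 14 value. Dlst had 54.9 and 62.5 CPM off and 47.7 and 50.2 CPM on, with a change of 0.26 ± 0.14 (adjusted p = 0.417). Neither gene's groups overlapped at day 5.

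Dlat at day 5 was 21.2 and 21.7 CPM off and 14.7 and 20.9 CPM on, a log2 fold change of 0.27 ± 0.20 (SE; edgeR adjusted p = 0.579). Pdha1 lay on the other side, at 54.1 and 66.7 CPM off and 72.1 and 84.6 CPM on, a change of -0.37 ± 0.16 (adjusted p = 0.305). Lipt2 was at 1.96 and 1.46 CPM off and 3.15 and 3.08 CPM on, a change of -0.87 ± 0.42 (adjusted p = 0.360) from 18 to 41 reads a library. Every off library was above both on libraries for 4 members (Dld, Dlat, Pdhb and Dlst), beside 19.3% of all genes, and below both for 3 (Fdx1, Lipt2 and Pdha1), beside 20.9%. The changes of Fdx1, Lias, Lipt1, Pdhb and Gcsh ran from -0.42 for Lipt1 to 0.09 for Pdhb.

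The difference between the days, that is, the day 14 change minus the day 5 change, was tested in the same fit. It was positive for all 10 members, with a median of 0.44 (0.03 over all genes). Without regard to sign, the median was 0.44 for the members and 0.49 over all tested genes, so the members differed no more than a typical gene. edgeR called the difference between the days for 0 of 10, as did DESeq2 and limma voom. An unadjusted edgeR p under 0.05 was seen for 3, and 3.06% of all genes were called. For Dlst the difference was 0.59 ± 0.18 (SE, 95% interval 0.18 to 0.99; edgeR adjusted p = 0.0970). For Gcsh it was 0.80 ± 0.34 (adjusted p = 0.192), for Lipt2 1.23 ± 0.55 (0.206) and for Dlat 0.43 ± 0.26 (0.357). Dld had the smallest, 0.06 ± 0.20 (0.896). The day 14 calls of Dlst, Dlat and Dld are therefore not shown to differ from day 5.

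Between the days within each state, the off comparison shares its day 14 libraries with the day 14 treatment comparison. Among off libraries, 1 of 10 members was higher at day 14 than at day 5 and 0 were lower, beside 10.1% and 6.94% of all genes. That member was Dlst, with 105 ± 4.83 CPM at day 14 and 58.7 ± 5.39 at day 5 (SD, n = 4 and n = 2), a rise of 0.83 ± 0.12 on the log2 scale (SE; edgeR adjusted p = 0.00244) that was called in all 18 alternative fits. Dlat changed by 0.38 ± 0.17 (adjusted p = 0.156), Lias by 0.37 ± 0.16 (0.143) and Fdx1 by -0.09 ± 0.17 (0.767). Among on libraries, 0 of 10 members were called by edgeR, DESeq2 or limma voom, 0 had an unadjusted p under 0.05, and 2.32% of all genes were called. Dlst was at 58.1 ± 5.58 CPM at day 14 on and 48.95 ± 1.82 at day 5 on, a change of 0.25 ± 0.14 (adjusted p = 0.348).

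The order of the group means differed between members. Dlst ran from day 14 off at the top to day 5 off and day 14 on, which were at 58.7 and 58.1 CPM and did not differ beyond their spread, and then day 5 on. Dlat followed the same order at the top, with 28.0 ± 2.29 CPM at day 14 off and 21.5 ± 0.358 at day 5 off, and its on groups, 17.3 ± 1.73 and 17.8 ± 4.35, overlapped. For Dld both off groups (36.7 ± 2.69 at day 14, 40.8 ± 4.23 at day 5) were above both on groups (27.5 ± 1.63 and 31.8 ± 0.656). Fdx1 was highest at day 5 on, 35.7 ± 5.44 CPM, and its other groups lay at 28.6 to 30.4 CPM, within their spread.

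Ratios of read counts between genes in the same library do not depend on the scaling between libraries. Tag counts of different genes are not levels per length, so only the change of a ratio between libraries is described, without a test. The ratio of Dlat to Pdha1 plus Pdhb, that is, of E2 to E1 reads of pyruvate dehydrogenase, was 0.238, 0.228, 0.183 and 0.233 in the day 14 off libraries and 0.147 and 0.151 in the on libraries. At day 5 it was 0.181 and 0.168 off and 0.115 and 0.142 on, so that every off library was above every on library over both days. How often ratios of other genes separate in this way was not tested. Pdha1 reads, which cannot be told apart from those of Map3k15, enter the ratio. At day 5 the log2 fold change of Pdha1 was -0.37 ± 0.16 and that of Dlat 0.27 ± 0.20 (SE). The ratio of Dlst to Ogdh, the E1 of the 2-oxoglutarate complex, was 2.40, 2.70, 2.44 and 3.09 off and 1.96 and 1.58 on at day 14. The day 5 values of that ratio overlapped, at 2.06 and 2.48 off and 2.41 and 1.86 on. Dlst over Fdx1 was 3.23 to 4.58 at day 14 off and 1.27 to 2.21 in the other 6 libraries.

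**Figure D3:**
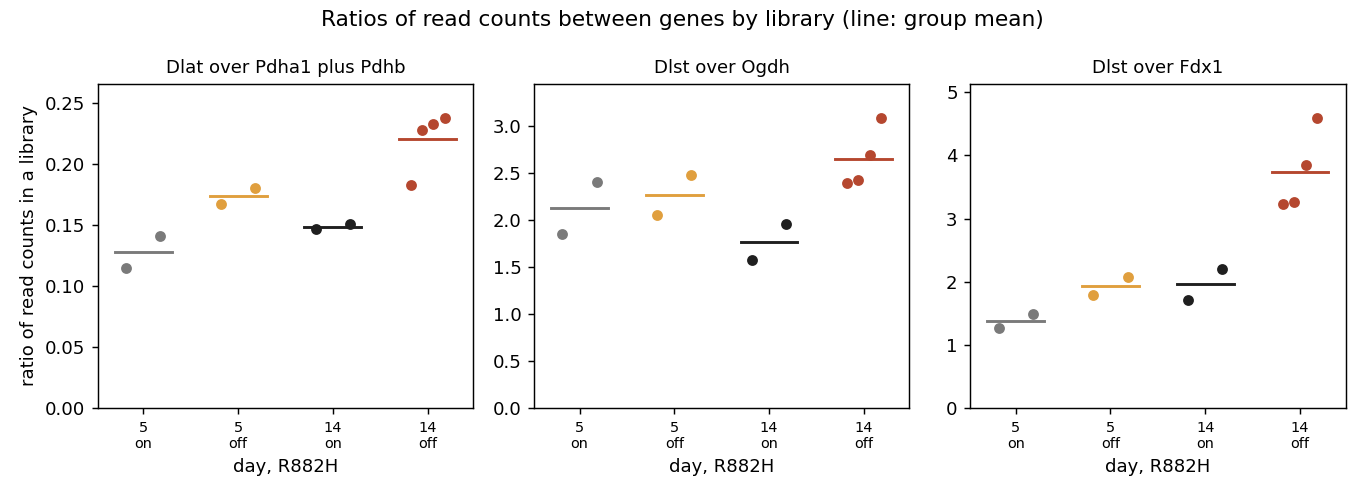
Ratio of read counts of Dlat to Pdha1 plus Pdhb, Dlst to Ogdh and Dlst to Fdx1 (vertical axes, starting at 0) in each library, by day and R882H state, with a line at the group mean. Dlat over E1 is 0.168 to 0.238 in the 6 off libraries and 0.115 to 0.151 in the 4 on libraries.

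Over the 10 libraries, the members' log2 CPM values varied together to different degrees, given here as a description since the libraries share groups and scaling. Dlat and Dlst had the highest Pearson correlation among the members, 0.845, followed by Lias with Dlst (0.837) and with Dlat (0.799). Dld was closest to Dlat (0.647), Pdhb to Dld (0.537), Lipt2 to Gcsh (0.611) and Lipt1 to Pdha1 (0.599), and Pdha1 and Gcsh were closest to each other (0.696). Fdx1 had no close partner: its highest value was 0.481, with Pdha1, and its value with Dlst, -0.51, was the lowest of all pairs. Among 9302 other genes whose log2 CPM averaged 3 or more, those most like Fdx1 were Parl (0.910), Gm16153 (0.882) and Rpl32 (0.869). Those most like Dlat were Rbm28 (0.983), Nup155 (0.983) and Kntc1 (0.976).

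The other genes of the pathway were read from 5 lists of related enzymes at day 14, where 16.9% of all tested genes were called higher and 14.9% lower. Of 10 other subunits of the lipoylated complexes, 8 could be tested, and 1 was higher and 2 lower, with a median log2 fold change of 0.06. Pdhx, which anchors Dld to the Dlat core, rose by 0.72 ± 0.19 (SE; edgeR adjusted p = 0.0138), from 14.9 ± 2.20 to 24.6 ± 2.09 CPM, as did the 2 subunits it joins. Bckdha, the E1 alpha subunit of the branched-chain complex, fell by 0.75 on the log2 scale (SE 0.24; adjusted p = 0.0361), and Amt, the aminomethyltransferase of glycine cleavage, fell by 1.18 (SE 0.40; adjusted p = 0.0416) at only 0.636 and 1.46 CPM. The E2 of the branched-chain complex, Dbt, had a change of -0.40 ± 0.32 (adjusted p = 0.374). The Amt call was lost in 11 of 17 alternative fits and that of Bckdha in 5 of 18, and Pdhx lost its own in 1 of 18, without day 14 on replicate 2. Bckdha was not called without day 14 off replicate 1, 2 or 4 or day 14 on replicate 1 or 2, and Amt not without any 1 of the day 14 or day 5 off libraries.

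Among 9 kinases and phosphatases that act on the complexes, 1 was higher and 1 lower at day 14, beside 16.9% and 14.9% of all tested genes. Pdp1, a phosphatase that activates pyruvate dehydrogenase, was 4.83 ± 0.321 CPM off and 21.0 ± 0.827 on at day 14, a log2 fold change of -2.12 ± 0.18 (SE; edgeR adjusted p = 5.0e-05). At day 5 it was 13.1 ± 1.01 CPM off and 28.9 ± 7.79 on, -1.14 ± 0.21 (adjusted p = 0.0481), a call lost in 11 of 18 alternative fits. Bckdk, the branched-chain complex kinase, rose by 0.78 ± 0.17 (adjusted p = 0.00595). The pyruvate dehydrogenase kinases Pdk1, Pdk2, Pdk3 and Pdk4 were not called, with changes of -0.65, -0.08, 0.41 and -1.58. In the alternative fits 0 to 1 genes of this list were called higher and 1 to 3 lower at day 14. Bckdk lost its call in 1 of 18.

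Of 7 genes of mitochondrial octanoate synthesis, 4 were higher and 1 lower at day 14 (median 0.62). The shares over all tested genes were 16.9% and 14.9%. Ndufab1, the acyl carrier protein, rose by 1.05 ± 0.17 (SE; edgeR adjusted p = 0.00128), Mecr, the last reductase of the cycle, by 1.32 ± 0.26 (0.00354) and Mcat, the malonyl transferase, by 0.62 ± 0.21 (0.0429), while Oxsm, the condensing enzyme, fell by 1.03 (SE 0.21; 0.00404). In the alternative fits 2 to 4 of them were called higher, and Mcat lost its call in 14 of 18.

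Of 14 genes that supply iron-sulfur clusters to enzymes such as Lias, 9 were higher and 0 lower (median 0.80, and 6 to 9 higher in the alternative fits). Over all tested genes, 16.9% were higher and 14.9% lower. Iba57, a late-acting assembly factor, rose by 2.07 ± 0.29 (SE; edgeR adjusted p = 5.3e-04), from 16.8 ± 3.49 to 70.3 ± 12.3 CPM. Glrx5, which carries clusters, rose by 1.67 ± 0.29 (0.00186) and Bola3, which acts in delivering them to lipoyl synthase, by 1.48 ± 0.25 (0.00139). Fdx2 and Fdxr, the second ferredoxin and the reductase that serves both ferredoxins, had changes of 0.34 ± 0.18 (adjusted p = 0.174) and -0.23 ± 0.20 (0.422). The erythroid marker sums given above, 4495 to 5772 CPM in the day 14 off libraries, moved with this list too.

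Of 12 genes of copper handling and of the cuproptosis screen outside the members, 2 were higher and 0 lower (median 0.13), and 0 to 3 were higher and 0 to 2 lower in the alternative fits. Ccs, the copper chaperone of superoxide dismutase, rose by 0.72 ± 0.21 (SE; edgeR adjusted p = 0.0221), and Atp7b, a copper exporter, by 2.38 ± 0.78 (0.0411). Atp7b was at 8.09 ± 1.45 CPM off and 1.59 ± 1.86 on, and its change ran from 1.48 to 4.82 in the alternative fits, of which 6 of 18 lost the call. Without day 14 off replicate 1, 2, 3 or 4 or day 14 on replicate 2 the Atp7b call was lost, as it was with the replicate block. The Ccs call was lost in 4 of 18, without day 14 off replicate 1 or 2 or day 14 on replicate 1 or 2, with an adjusted p of up to 0.133. Atp7a, another copper exporter, had a change of -0.82 ± 0.29 (adjusted p = 0.0522). The copper importer Slc31a1 had a change of 0.14 ± 0.20 (adjusted p = 0.646). Beside these 2 of 12 copper genes, 16.9% of all tested genes were higher and 14.9% lower at day 14. At day 5, Pdp1 was the single called gene of these 5 lists, beside 0.484% of all tested genes.

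**Figure D4:**
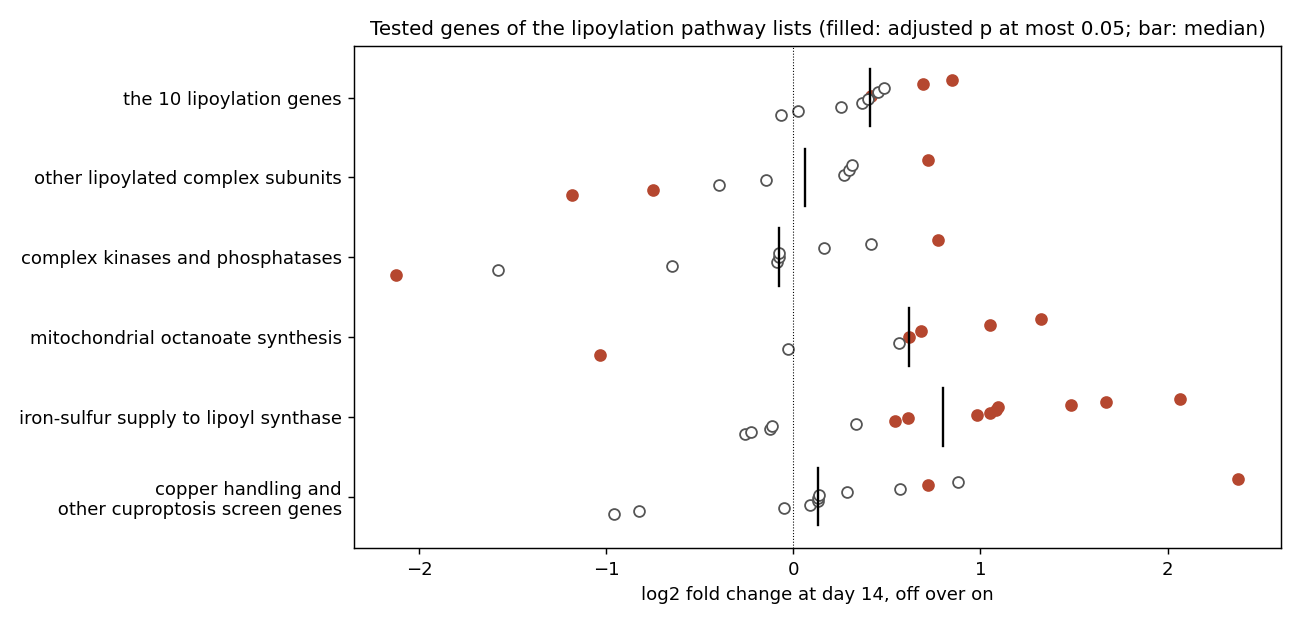
Log2 fold change at day 14, off over on (horizontal axis), of each tested gene of the 10 members and of the 5 related lists (rows), filled where the test was passed, with a vertical bar at each list's median. The iron-sulfur list has 9 filled points on the right and a median of 0.80, and the members have 3 and a median of 0.41.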

How the data were processed

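RNA of sorted cells was measured in 10 3′ tag libraries (QuantSeq, polyA RNA). The deposited table holds raw counts of reads for each Ensembl gene, without normalisation. The submitters' processing notes list the mm10 build, the aligner HISAT2 2.0.4, trimming with cutadapt 1.14, Subread 2.0.0 with featureCounts, and bcl2fastq 2.17.1.14, beside limma 3.48.3 and edgeR 3.34.0. Which annotation release and which strand setting were used is not given in the sources used here. Of the 52636 gene IDs, 52489 matched GENCODE M21, which gave symbols and positions, and 147 did not. Promoters came from RefSeq (GRCm38.p6).

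The analysis used edgeR 4.0.16 in R 4.3.3: filterByExpr (15916 genes kept), TMM scaling, a robust quasi-likelihood fit with 1 mean for each of the 4 groups over all 10 libraries, and Benjamini-Hochberg adjustment over all tested genes, with a call at an adjusted p of 0.05. Standard errors are the absolute log2 fold change over the square root of F. The fit was run on simulated data, with changes larger than those of the called members and levels above those of Lipt1 and Lipt2. That run does not cover changes as small or levels as low as these. Library totals of 9292644 to 14340624 limit the precision of low genes such as Lipt1 and Lipt2. The members and lists were chosen with earlier results of these data known. Every member was named. From each related list, the text names up to 4 called genes of smallest p at day 14, and further genes (Dbt, Pdk1 to Pdk4, Fdx2, Fdxr, Slc31a1, Atp7a, Ogdh) were named after their values were seen. A gene that this rule would name is not reported here. Alternatives were leaving out the low-count filter, requiring 5 CPM in 2 or more libraries, RLE scaling, DESeq2 1.42.0, limma 3.58.1 voom, a replicate block, a fit of only the compared groups, leaving out the 3 ribosomal RNA locus genes, and leaving out each of the 10 libraries. Applying them to the related lists was decided after the data were seen.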

Additional observations from a re-analysis of the deposited data

How the results depend on the processing

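Of 885 results for single members under the alternatives, 841 kept their direction and their side of the threshold, 13 lost a call, 3 gained one and 28 changed sign, 0 of those with a call. The number of members higher at day 14 was 3, and 1 to 4 when 1 library was left out (1, Dlst, without day 14 on replicate 1, and 4 without day 5 on replicate 2). Pdha1 at day 14 changed sign with the 5 CPM filter (-0.032), RLE (-0.0047), DESeq2 (-0.0050) and only the compared groups (-0.029). Lias at day 5 changed sign with no filter (0.0024) and with the replicate block (0.0018). Leaving out 1 library gave the following ranges where the sign changed. At day 14 they were -0.13 to 0.15 for Pdha1, -0.18 to 0.030 for Fdx1 and -0.0027 to 0.83 for Lipt2. At day 5 they were -0.24 to 0.27 for Lias, -1.09 to 0.016 for Lipt1 and -0.016 to 0.21 for Pdhb. For the difference between the days they were -0.071 to 0.17 for Dld and -0.053 to 0.29 for Fdx1. For day 14 against day 5 they were -0.27 to 0.27 for Dlat, -0.30 to 0.20 for Lias and -0.79 to 0.0092 for Gcsh in the on libraries, and -0.046 to 1.07 for Lipt1 and -0.037 to 0.28 for Pdha1 in the off libraries. The cause was not tested. The labels do not say what a replicate number shares. Same-numbered deviations from the group mean correlated by 0.03 to 0.33, over 0.1 in 10 of 12 comparisons. Because not all were over 0.1, the numbers were not taken as pairs. The own number was best in 20 of 24, a hint from the data that some may be pairs. In a group of 2 libraries the deviations mirror each other, so replicates 1 and 2 repeat the same value and these counts are not of independent comparisons. With the replicate block, 2 members were higher at day 14 (Dlst 0.84, Dlat 0.76), Dld had 0.40 (adjusted p = 0.0681), and no other call of a member changed. Calls over all genes moved by more than 1.5 times as follows (higher, then lower). At day 5 they were 59 and 18, but 142 and 83 with the replicate block, 310 and 162 with DESeq2, 558 and 434 with no filter, 0 and 0 with voom or only the compared groups, and 0 to 133 and 0 to 171 with 1 library left out. For the difference between the days they were 262 and 225, but 720 and 801 with the block, 681 and 646 with DESeq2, 775 and 1182 with no filter, and 51 to 551 and 54 to 414 with 1 library left out. Among on libraries they were 154 and 216 between the days, but 509 and 505 with the block, 549 and 587 with DESeq2, 773 and 502 with no filter, 143 and 139 with RLE, 0 and 0 with only the compared groups, and 0 to 322 and 0 to 358 with 1 library left out. Among off libraries they were 1601 and 1105, but 282 to 1931 and 319 to 1496 with 1 library left out. At day 14 (2686 and 2377), leaving out 1 library gave 1402 to 2891 and 1583 to 2955. Lipt2 was not tested under the 5 CPM filter. Reads of 16 to 70 per library limit Lipt1 and Lipt2.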
